A study of Mus musculus with 6 samples.

Results

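The immediate-early response genes Fos, Fosb, Jun, Junb, Egr1, Atf3, Ier2, Dusp1, Nr4a1 and Zfp36 were examined in the esophagus of carcinogen-treated mice, where DTA-1, an antibody that stimulates GITR (a costimulatory receptor of T cells), was compared with an isotype antibody. The 10 genes were taken by symbol from a list of immediate-early genes, and all 10 were found among the 54232 Ensembl gene IDs of the count files. Mice of both groups had taken 4-NQO, a carcinogen that induces squamous tumors of the esophagus, at 100 µg/ml in their drinking water for 16 weeks from 8 weeks of age, followed by 12 weeks of plain water. In the DTA-1 group the mice then received 10 µg of DTA-1 in the abdomen 2 times a week, starting 2.5 weeks before they were killed, and the isotype group received the control antibody on the same schedule. Tissue was taken the day after the last injection, enriched for invading cells, minced and frozen before polyA RNA was extracted. Each group had 3 libraries, and where 3 values are listed for a group they belong to its replicates 1, 2 and 3. The labels do not tie each library to a separate mouse, so the p-values measure only how far these samples differ among themselves, and that spread may be technical.

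Immediate-early genes are transcribed within minutes of a stimulus, without new protein synthesis, because the factors that switch them on (serum response factor with its ETS partners, and CREB) already sit in the cell and are activated by kinases such as ERK, p38 and protein kinase A. Fos and Jun family proteins pair through leucine zippers to form AP-1, which drives later genes of growth, wound repair and inflammation. Dusp1 and Zfp36 shut the response down again, by removing phosphate from MAP kinases and by sending AU-rich mRNAs to decay. In epithelium the same genes respond to growth factors and cytokines and also to wounding, peeling and mincing of tissue, and the time between death and freezing is not given by the labels, so that handling and signaling in the living animal cannot be told apart here. In bulk tissue, fewer cells of a type and less RNA per cell cannot be told apart either.

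Promoter sequence was matched by symbol for 8 of the 10 genes (RefSeq, GRCm38.p6), as the 250 bases before the transcription start. Egr1 and Ier2 had no matched window and were not searched. The 4 windows that carry no annotated exon (GENCODE M21) are shown, and they belong to genes of each of the 3 sets compared across libraries. Capitals mark the cyclic-AMP response element (CRE) half-site TGACG, read on either strand as TGACG or CGTCA.
Junb (chr8:84978749-84978998, minus strand): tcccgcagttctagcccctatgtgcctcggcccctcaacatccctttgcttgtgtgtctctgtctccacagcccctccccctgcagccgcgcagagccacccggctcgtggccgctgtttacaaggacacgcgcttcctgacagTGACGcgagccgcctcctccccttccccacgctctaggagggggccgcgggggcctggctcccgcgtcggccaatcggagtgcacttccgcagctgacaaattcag
Fos (chr12:85473640-85473889, plus strand): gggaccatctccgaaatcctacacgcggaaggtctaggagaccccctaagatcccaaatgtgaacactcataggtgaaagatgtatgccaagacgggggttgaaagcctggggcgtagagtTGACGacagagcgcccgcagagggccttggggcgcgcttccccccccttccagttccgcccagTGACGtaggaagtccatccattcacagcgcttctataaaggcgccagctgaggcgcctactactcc
Jun (chr4:95052223-95052472, minus strand): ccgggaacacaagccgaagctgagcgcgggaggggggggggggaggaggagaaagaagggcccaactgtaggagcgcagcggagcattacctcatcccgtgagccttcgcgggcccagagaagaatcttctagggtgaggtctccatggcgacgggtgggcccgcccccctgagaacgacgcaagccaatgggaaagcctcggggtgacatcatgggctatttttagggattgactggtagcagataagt
Nr4a1 (chr15:101266596-101266845, plus strand): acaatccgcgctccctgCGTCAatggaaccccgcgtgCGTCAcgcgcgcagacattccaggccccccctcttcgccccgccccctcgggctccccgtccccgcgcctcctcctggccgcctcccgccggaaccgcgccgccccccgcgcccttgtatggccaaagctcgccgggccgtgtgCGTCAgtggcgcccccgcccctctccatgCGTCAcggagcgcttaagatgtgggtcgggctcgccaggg

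The half-site stood at 2 places in the Fos window and at 4 in the Nr4a1 window, once in that of Junb and nowhere in that of Jun. Of the 8 windows, 6 held it (Fos, Fosb, Junb, Atf3, Dusp1 and Nr4a1), and 17.8% of 32851 mouse promoter windows of this length did so, a share that is not matched for base composition. The full element TGACGTCA, which contains the half-site on both strands, was found in Dusp1 alone, 143 to 136 bases before the start (-143 to -136), and in 1.55% of all windows. A CArG box, the letters bound by serum response factor, was found in Zfp36 alone of the 8 windows, at -58 to -49, and in 1.47% of all windows. The AP-1 letters TGANTCA were in none of the 8 windows and in 6.75% of all windows, and the TATA letters TATAAA were in that of Fos at -33 to -28 and in 12.4% of all. These matches are descriptions of 250 bases, and elements farther from the start lie outside them.

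The libraries held 23147873 to 29065162 counts, and 3 reads correspond to 0.108 to 0.141 CPM (reads of a gene relative to the scaled size of its library), counting error only. Members had between 34 reads (Fosb in DTA-1 replicate 2) and 5518 reads (Junb in isotype replicate 1). Counting error weighed most on Fosb, but its highest library was still 4.17 times its lowest. For the other members counting error was small beside the differences between libraries. Squamous transcripts were low in DTA-1 replicates 2 and 3: 10 differentiated squamous markers summed to 18718, 5682 and 5970 CPM in the DTA-1 libraries and 17987, 35673 and 39957 CPM in the isotype libraries. The 8 basal markers, among them Krt5 and Sox2, summed to 10884, 3215 and 4113 CPM in the DTA-1 libraries and 16374, 9054 and 4554 CPM in the isotype libraries, where replicate 3 was low as well. The 12 striated muscle markers summed to between 99292 and 146459 CPM in DTA-1 libraries, against between 44395 and 93427 CPM in isotype libraries. T cell markers, those of the cells that carry GITR, were scarce, 8 genes summing to between 4.71 and 7.73 CPM with DTA-1 and between 6.93 and 12.9 CPM with isotype. The part of these differences in the values below was not tested, and the fits with a marker score cannot tell it apart from treatment.

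The 10 genes had no common direction with DTA-1. No member passed edgeR's quasi-likelihood test at an adjusted p of 0.05, as no gene did (0% of 15763 genes), and the members' adjusted p ran from 0.401 to 0.664. On simulated data edgeR recovered 6% of 2-fold changes and 71% of 4-fold changes. Not passing therefore does not show that a gene was unchanged. At an unadjusted p under 0.05 the count was 0 of 10 members, against 12.7% of all genes tested (7.52% lower and 5.21% higher with DTA-1). DESeq2 and limma-voom also called 0 of the 10, with 1 at an unadjusted p under 0.05 in each. That threshold was met by 2519 of 16084 genes in DESeq2 and 2193 of 15763 in limma-voom. At an adjusted p of 0.05 DESeq2 called 180 genes and limma-voom 0. On data simulated without any change, DESeq2 called 37 genes. The members' summed level was 800, 653 and 587 CPM in the DTA-1 libraries and 719, 691 and 660 CPM in the isotype libraries, so the groups overlapped. Of the 10 fold changes 6 were below 0, where 52.9% of all genes were, and their median was -0.35 (log2, DTA-1 over isotype) beside -0.03 for all genes tested. All 10 had passed the filter on low counts, and all 10 kept the sign of their fold change under each other scaling of the libraries tried.

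**Figure D1:**
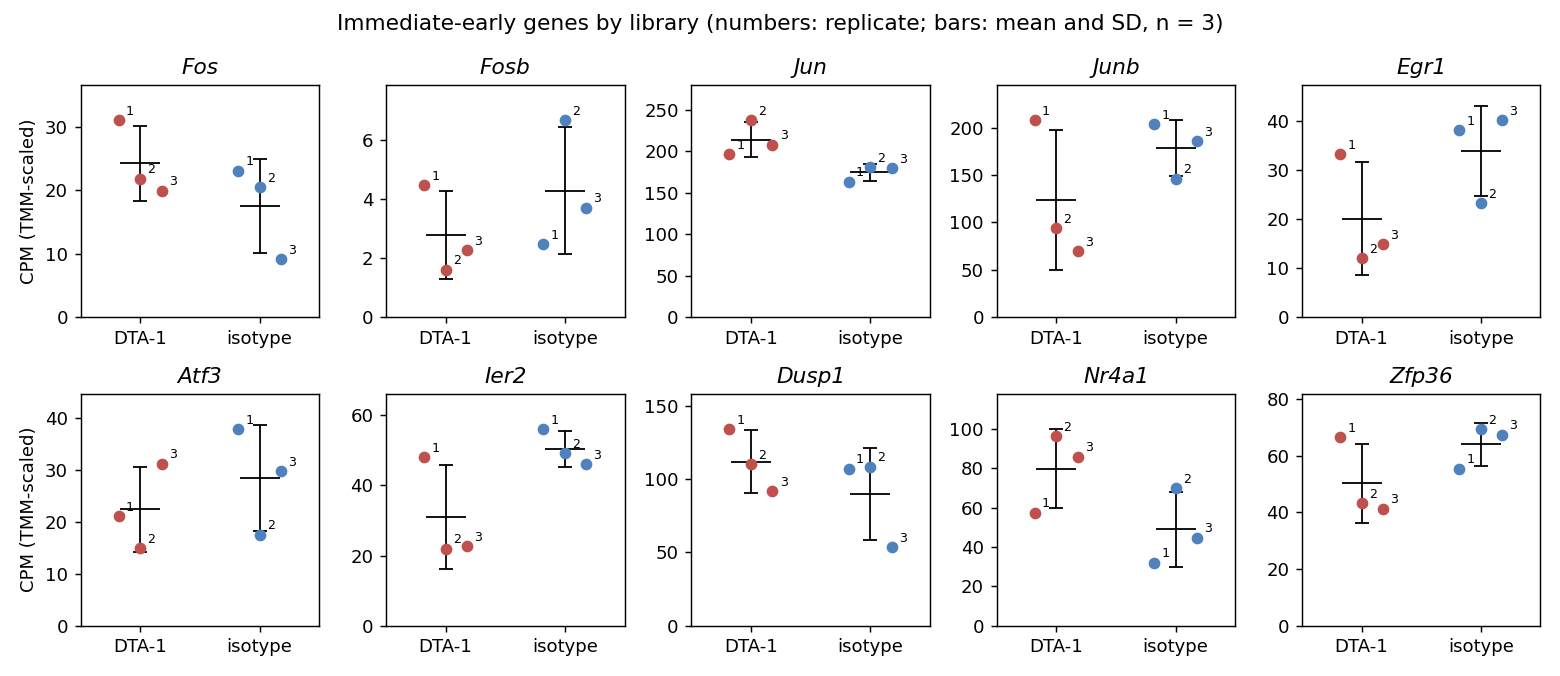
Level of each immediate-early gene in CPM (vertical axes, each starting at 0) in the 3 DTA-1 libraries and the 3 isotype libraries, with replicate numbers beside the points and the mean with its SD as bars. Jun alone has every DTA-1 point above every isotype point. In Junb, Ier2, Egr1, Zfp36 and Fosb, DTA-1 replicates 2 and 3 lie below all other libraries.

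For 7 of the 10 members, 3 sets with like profiles over the 6 libraries are described, chosen after the values were known and therefore given without a test. Junb, Ier2 and Egr1 were low in DTA-1 replicates 2 and 3. Fos and Dusp1 were low in isotype replicate 3. Jun and Nr4a1 were at their highest in DTA-1 replicate 2 and at their lowest in isotype replicate 1. The sets have no sharp border: Zfp36, which is in none of them, differed from Ier2 by 0.319 and from Junb by 0.377 in centred log2 CPM (root mean square over 6 libraries), less than the 0.399 between Jun and Nr4a1. Fosb and Atf3 are in none of them either. DTA-1 replicates 2 and 3 were the lowest libraries for Zfp36 and Fosb as well, so this trait is not particular to Junb, Ier2 and Egr1.

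Among the AP-1 genes, Jun was the steadiest. Jun, the main transactivating partner of Fos (chromosome 4, 95049034 to 95052222, GRCm38, ENSMUSG00000052684), stood at 196, 237 and 208 CPM in the DTA-1 libraries and 163, 181 and 180 CPM in the isotype libraries. The lowest DTA-1 library exceeded the highest isotype library, as was the case for 8.60% of all genes tested, and no other member's groups stood apart. The log2 fold change was 0.29 ± 0.16 (SE), with an adjusted p of 0.435 in edgeR, so Jun did not pass. The antisense transcript Junos overlaps Jun and was low, at 2.14 to 2.83 CPM with DTA-1 and 1.36 to 1.84 CPM with isotype, and whether counting used strand is not given in the sources used here.

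Junb, the AP-1 subunit that restrains Jun in many settings (chromosome 8, 84974484 to 84978718, ENSMUSG00000052837), stood at 208, 93.7 and 69.7 CPM in the DTA-1 libraries and 203, 146 and 185 CPM in the isotype libraries. DTA-1 replicate 1 was the highest library of all and replicates 2 and 3 the lowest pair. The averages were 124 ± 73.7 CPM with DTA-1 and 178 ± 29.3 CPM with isotype (SD, n = 3 each), and the log2 fold change of -0.53 ± 0.40 (SE) did not pass edgeR (adjusted p = 0.553). Per base of exon, Junb was 1.47 times the level of Jun in DTA-1 replicate 1 but 0.547 and 0.465 times that level in DTA-1 replicates 2 and 3, against 1.73, 1.12 and 1.43 times in the isotype libraries. This ratio within a library does not depend on how libraries were scaled. Exons of the antioxidant gene Prdx2 overlap Junb on the other strand, and Prdx2 was flat, at 162 to 189 CPM with DTA-1 and 160 to 182 CPM with isotype.

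Fos, the prototype immediate-early gene (chromosome 12, 85473890 to 85477273, ENSMUSG00000021250), did not follow Junb. It stood at 31.0, 21.8 and 19.9 CPM in the DTA-1 libraries and 23.0, 20.5 and 9.13 CPM in the isotype libraries. Isotype replicate 3 was the low library and the other 5 lay between 19.9 and 31.0 CPM, so the log2 fold change of 0.47 ± 0.37 (SE; adjusted p = 0.566 in edgeR) was 0.18 without that library.

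Fosb, whose product pairs with Jun proteins in the same way (chromosome 7, 19302696 to 19310051, ENSMUSG00000003545), was the scarcest member. It stood at 4.48, 1.60 and 2.27 CPM in the DTA-1 libraries and 2.47, 6.68 and 3.72 CPM in the isotype libraries. The groups overlapped, isotype replicate 2 being high. DTA-1 replicates 2 and 3 were the lowest libraries, replicate 3 only just below isotype replicate 1. The log2 fold change of -0.62 ± 0.53 (SE; adjusted p = 0.587 in edgeR) became -1.14 when DTA-1 replicate 1 was left out and -0.14 when isotype replicate 2 was.

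**Figure D2:**
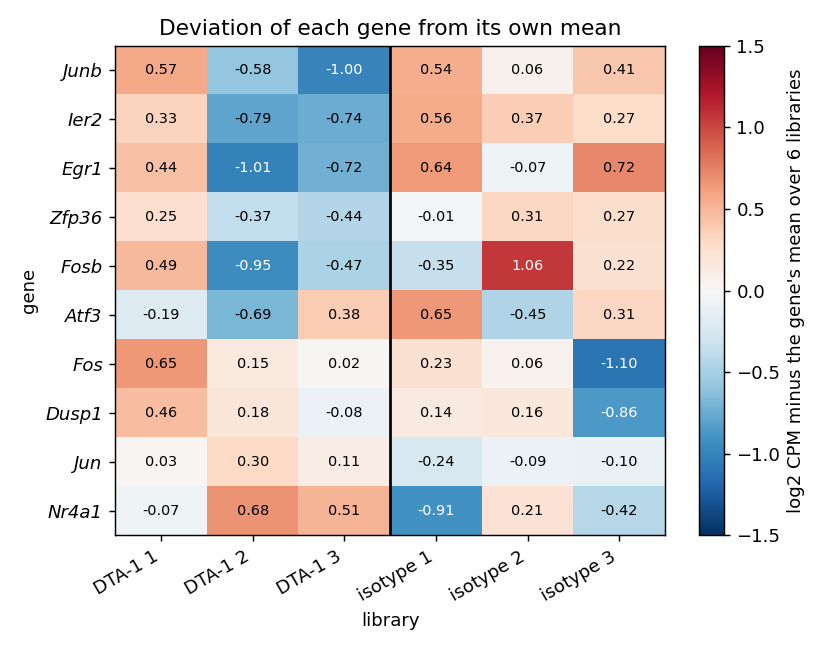
Deviation of each gene (rows) in each library (columns) from that gene's own mean over the 6 libraries, in log2 CPM, with DTA-1 libraries left of the line. Junb, Ier2 and Egr1 share low values in DTA-1 replicates 2 and 3, which are the lowest libraries for Zfp36 and Fosb too. Fos and Dusp1 share a low value in isotype replicate 3 (-1.10 and -0.86). Nr4a1 runs from 0.68 in DTA-1 replicate 2 to -0.91 in isotype replicate 1.

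Of the other regulators, Egr1, a zinc-finger factor induced through serum response factor (chromosome 18, 34859823 to 34864984, ENSMUSG00000038418), stood at 33.3, 12.1 and 14.8 CPM in the DTA-1 libraries and 38.2, 23.3 and 40.2 CPM in the isotype libraries. DTA-1 replicate 1 lay inside the isotype range and DTA-1 replicates 2 and 3 below it. Its log2 fold change was the lowest of the 10, at -0.76 ± 0.42 (SE), with an adjusted p of 0.44 in edgeR.

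Ier2, a small nuclear protein of growth factor responses (chromosome 8, 84661331 to 84662852, ENSMUSG00000053560), stood at 48.0, 21.9 and 22.7 CPM in the DTA-1 libraries and 56.1, 49.1 and 46.0 CPM in the isotype libraries. The 3 isotype libraries and DTA-1 replicate 1 lay close together, and the other DTA-1 libraries stood well below them. The averages were 30.9 ± 14.8 CPM with DTA-1 and 50.4 ± 5.15 CPM with isotype (SD, n = 3 each), with a log2 fold change of -0.71 ± 0.32 (SE) that did not pass edgeR (adjusted p = 0.401). Ier2 and Junb kept a near-constant ratio: per base of exon Junb was 2.86, 2.83 and 2.03 times Ier2 in the DTA-1 libraries and 2.40, 1.97 and 2.67 times in the isotype libraries.

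Nr4a1, an orphan nuclear receptor induced in T cells by antigen receptor signals and in muscle by activity (chromosome 15, 101254269 to 101274795, ENSMUSG00000023034), ran the other way. It stood at 57.3, 96.2 and 85.9 CPM in the DTA-1 libraries and 32.1, 69.8 and 44.8 CPM in the isotype libraries. The groups overlapped through isotype replicate 2, which exceeded DTA-1 replicate 1. The log2 fold change of 0.71 ± 0.32 (SE; adjusted p = 0.401 in edgeR) was the highest of the 10. It was 0.49 without isotype replicate 1, 1.07 without isotype replicate 2 and 0.13 with a squamous marker score as a covariate. Per base of exon, Egr1 was 0.455, 0.0982 and 0.135 times Nr4a1 in the DTA-1 libraries and 0.933, 0.261 and 0.703 times in the isotype libraries, the widest spread among the 11 pairs of members whose ratio was formed.

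Atf3, a CREB/ATF family repressor of stress and injury (chromosome 1, 191170296 to 191218039, ENSMUSG00000026628), followed none of these sets. It stood at 21.0, 14.8 and 31.1 CPM in the DTA-1 libraries and 37.8, 17.5 and 29.7 CPM in the isotype libraries, so that each group had a high and a low library. The log2 fold change of -0.34 ± 0.36 (SE; adjusted p = 0.664 in edgeR) became -0.66 when DTA-1 replicate 3 was left out and -0.07 when isotype replicate 1 was.

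The 2 genes that end the response differed from each other. Dusp1, the phosphatase that inactivates p38, JNK and ERK (chromosome 17, 26505590 to 26562128, ENSMUSG00000024190), stood at 134, 110 and 91.6 CPM in the DTA-1 libraries and 107, 108 and 53.6 CPM in the isotype libraries. As in Fos, isotype replicate 3 was the low library, and the log2 fold change of 0.32 ± 0.30 (SE; adjusted p = 0.62 in edgeR) was 0.08 without it. Dusp1 and Fos were the closest pair of members, their centred log2 CPM differing by 0.144 (root mean square over 6 libraries). Per base of exon, Dusp1 was 3.07, 3.59 and 3.27 times Fos in the DTA-1 libraries and 3.30, 3.76 and 4.17 times in the isotype libraries. Exons of Ergic1 overlap the Dusp1 locus on the other strand, at 71.0 to 77.9 CPM with DTA-1 and 65.5 to 111 CPM with isotype.

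Zfp36, or tristetraprolin, which brings AU-rich cytokine and immediate-early mRNAs to decay (chromosome 7, 28376784 to 28380253, ENSMUSG00000044786), stood at 66.4, 43.2 and 41.3 CPM in the DTA-1 libraries and 55.4, 69.4 and 67.4 CPM in the isotype libraries. DTA-1 replicates 2 and 3 were the lowest libraries, as for Junb, over a narrower range. The log2 fold change was -0.35 ± 0.22 (SE), with an adjusted p of 0.489 in edgeR.

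Several of these values turned on DTA-1 replicate 1. Without it, edgeR called 601 of 16303 genes (3.69%; 3.31% were lower in DTA-1), and Ier2 was among those that fell, at a log2 fold change of -1.18 ± 0.15 (SE; adjusted p = 0.0309). The fold changes of Egr1 (-1.33 ± 0.29, adjusted p = 0.0701 in edgeR), Junb (-1.13 ± 0.23, adjusted p = 0.0629) and Zfp36 (-0.60 ± 0.16, adjusted p = 0.0966) widened without passing. Leaving out another DTA-1 library moved them the other way, to -0.49 for Egr1 without replicate 2, and to -0.24 for Junb and -0.22 for Zfp36 without replicate 3. Without DTA-1 replicate 1, 5 of 10 members had an unadjusted p under 0.05, against 24.6% of all genes in that comparison. They were Ier2, Egr1, Junb and Zfp36, which were lower with DTA-1, and Nr4a1, which was higher (0.90 ± 0.33, SE). DTA-1 replicate 1 lay nearer to the isotype libraries in squamous markers, as given above. Over all genes its counts were closest to those of isotype replicate 3 (median chi-square per gene 4.00). The distances were 10.5 and 14.4 to DTA-1 replicates 2 and 3, and 11.5 and 10.8 to isotype replicates 1 and 2. Over all genes it was thus near to 1 isotype library and not to the isotype group. With a squamous marker score as a covariate the fold changes of Junb, Egr1, Ier2, Zfp36 and Fosb were all above 0 in edgeR. They were 0.55 ± 0.37, 0.17 ± 0.50, 0.25 ± 0.22, 0.21 ± 0.25 and 0.47 ± 0.74 (SE), so the signs are uncertain. Those of Nr4a1 and Jun shrank to 0.13 ± 0.56 and 0.12 ± 0.25, and none passed. With a striated muscle score as the covariate the fold changes of Fos and Dusp1 were 1.67 ± 0.51 and 1.20 ± 0.44 (SE). That of Jun was 0.11 ± 0.24, while that of Nr4a1, at 0.61 ± 0.66 (SE), stayed near its value of 0.71 without the covariate. None passed either. Both scores come from the same 6 libraries.

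**Figure D3:**
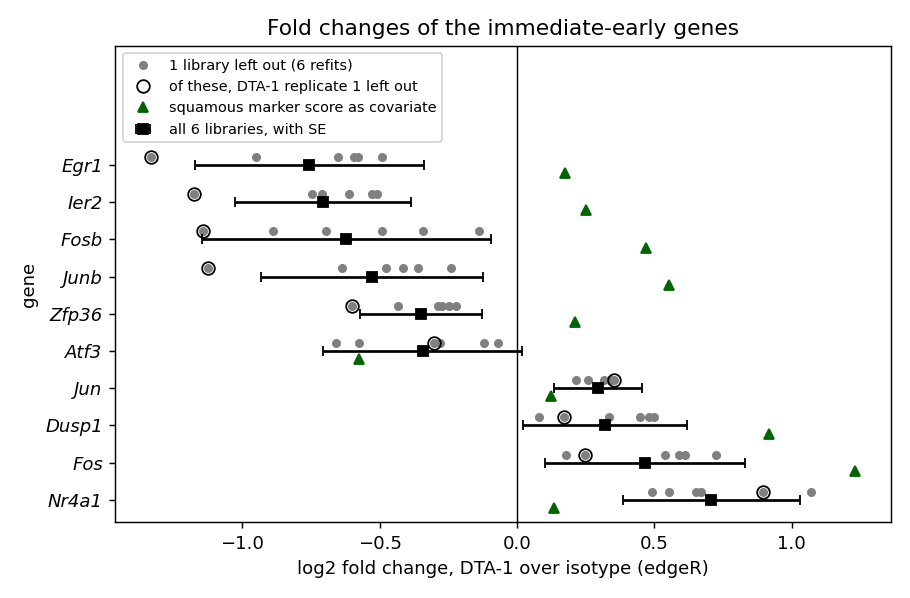
Log2 fold change of each member (rows), DTA-1 over isotype, from edgeR with all 6 libraries (squares, with SE), with 1 library left out (grey points, the refit without DTA-1 replicate 1 ringed) and with the squamous marker score as a covariate (triangles). Leaving out a library changed no sign, while the triangles of Junb, Egr1, Ier2, Zfp36 and Fosb lie above 0.

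The 3 sets can be put beside the tissue markers of the same libraries. The mean of Junb, Ier2 and Egr1, as deviation from each gene's own average, was 0.45, -0.80 and -0.82 log2 CPM in the DTA-1 libraries and 0.58, 0.12 and 0.47 in the isotype libraries. Beside this, the differentiated squamous markers deviated by 0.12, -1.27 and -1.03 in the DTA-1 libraries and 0.44, 0.87 and 0.87 in the isotype libraries. This trio and the markers were both low in DTA-1 replicates 2 and 3. Fos and Dusp1 deviated by 0.56, 0.16 and -0.03 in the DTA-1 libraries and 0.18, 0.11 and -0.98 in the isotype libraries. Isotype replicate 3, lowest in Fos and Dusp1, was among the highest in differentiated squamous markers. Jun and Nr4a1 deviated by -0.02, 0.49 and 0.31 in the DTA-1 libraries and -0.57, 0.06 and -0.26 in the isotype libraries. The striated muscle markers deviated by 0.26, 0.78 and 0.27 in the DTA-1 libraries and -0.67, -0.69 and 0.06 in the isotype libraries.

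**Figure D4:**
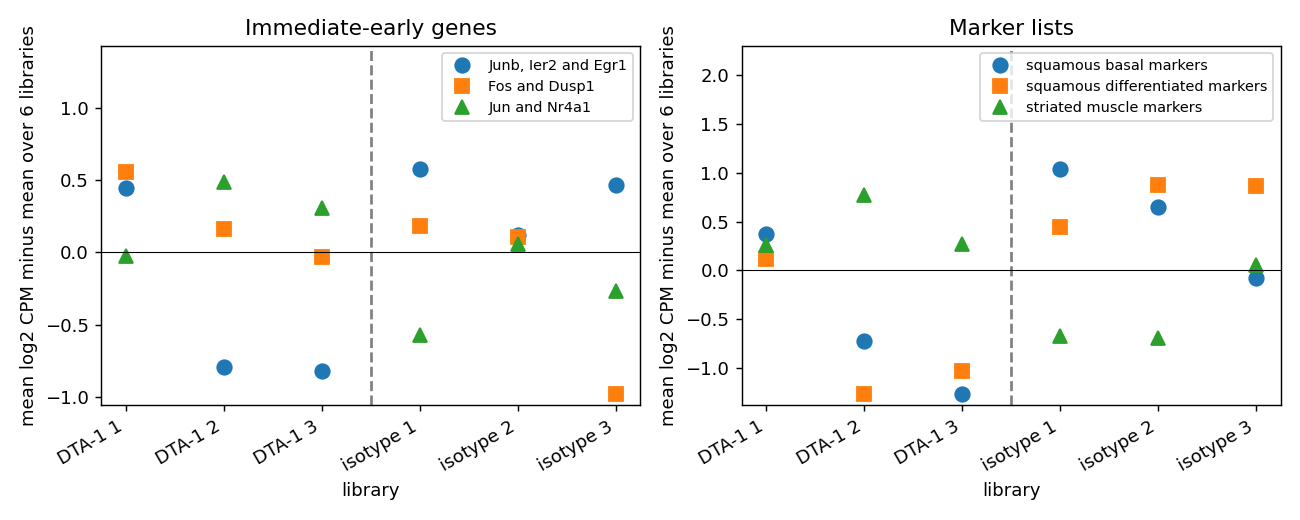
Mean deviation from the average of the 6 libraries, in log2 CPM, for 3 sets of immediate-early genes (left) and 3 marker lists (right), with DTA-1 libraries left of the dashed line. Junb, Ier2 and Egr1 (circles, left) and the squamous markers (right) are both low in DTA-1 replicates 2 and 3, while Fos and Dusp1 (squares, left) are lowest in isotype replicate 3.

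Per kilobase of exon, Junb and Jun were the most abundant members and Fosb the scarcest. Over the 6 libraries Junb averaged 65.6 RPKM (30.3 to 90.3) and Jun 60.9 RPKM (51.2 to 74.5), followed by Dusp1 at 30.4 (16.2 to 40.5), Ier2 at 26.7 (14.4 to 36.8), Nr4a1 at 18.3 (9.14 to 27.4) and Zfp36 at 16.5 (11.9 to 19.99). Atf3 at 11.8 RPKM (6.89 to 17.5), Fos at 8.88 (3.88 to 13.2), Egr1 at 6.02 (2.69 to 8.97) and Fosb at 0.566 (0.257 to 1.07) came last. Neighbours in this order had overlapping ranges, except Jun above Dusp1 and Egr1 above Fosb. By average, DTA-1 libraries put Jun first, at 67.1 ± 6.66 RPKM beside 53.8 ± 32.0 for Junb (SD, n = 3 each). Isotype libraries put Junb first, at 77.5 ± 12.7 RPKM beside 54.7 ± 3.08 for Jun (SD, n = 3 each). In DTA-1 replicate 1, however, Junb came first, at 90.3 RPKM beside 61.5 for Jun.

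Most members varied more between replicates than genes of like abundance did. The biological coefficient of variation, edgeR's estimate of spread beyond counting error within the groups, was 0.288 to 0.478 for 8 members, against a median of 0.294 over all genes. Among the 500 genes nearest in abundance it exceeded that of 93.2% for Junb, 91.8% for Egr1, 89.4% for Nr4a1, 88.8% for Ier2, 86.4% for Fos, 86.2% for Atf3, 84.6% for Dusp1, 76.2% for Fosb and 66.8% for Zfp36. Jun was the exception, at 0.199, above only 11.6% of its neighbours. The highest library exceeded the lowest by 4.17 times for Fosb, 3.40 times for Fos and 3.33 times for Egr1, but by 1.46 times for Jun.

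Beyond the 10 members, 36 other immediate-early genes were tested and 27 had negative fold changes (75%, beside 52.9% of all genes), with a median of -0.38. None passed edgeR, 7 had an unadjusted p under 0.05 (19.4%, beside 12.7% of all genes), and in 6 the highest DTA-1 library fell short of the lowest isotype library (16.7%, beside 9.38%). Their median was -0.73 without DTA-1 replicate 1, and with the squamous score as a covariate it turned to 0.076. Myc, the growth regulator, had 48.2, 29.3 and 22 CPM in the DTA-1 libraries and 66.6, 60.5 and 68.2 CPM in the isotype libraries, with a log2 fold change of -0.97 ± 0.29 (SE). Ier5, which promotes heat shock factor activity, averaged 47.8 ± 3.72 CPM with DTA-1 and 74.4 ± 12.5 CPM with isotype (SD, n = 3 each). Nfkbiz, an atypical IkappaB protein that steers NF-kappaB in epithelium, averaged 39.2 ± 13.3 CPM with DTA-1 and 74.1 ± 17.5 CPM with isotype. The Egr1 relative Egr3 averaged 3.43 ± 2.04 CPM with DTA-1 and 8.63 ± 4.39 CPM with isotype, and the growth arrest gene Gadd45g was on the other side, at 102 ± 18.4 CPM with DTA-1 and 54.1 ± 20.9 CPM with isotype. Each of these 4 and Myc had an adjusted p of 0.39 or 0.397 in edgeR. Among the remaining AP-1 subunits, chosen after their values were seen, Fosl2 stood at 192, 99.0 and 67.6 CPM in the DTA-1 libraries and 210, 223 and 201 CPM in the isotype libraries, and Jund averaged 74.5 ± 17 CPM with DTA-1 and 82.8 ± 15 CPM with isotype.

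None of the genes that act upstream or downstream of the members passed edgeR. Of 17 upstream factors and kinases 8 had positive and 9 negative fold changes (median -0.03). Mapk3, which encodes ERK1, averaged 92.2 ± 11.2 CPM with DTA-1 and 137 ± 18 CPM with isotype (SD, n = 3 each; adjusted p = 0.39 in edgeR), and the p38 target kinase Mapkapk2 407 ± 35.6 CPM with DTA-1 and 306 ± 62.6 CPM with isotype (adjusted p = 0.428). Of 14 MAP kinase feedback genes 9 had positive fold changes (median 0.22). The nuclear ERK phosphatase Dusp5 averaged 11.6 ± 4.88 CPM with DTA-1 and 23.4 ± 5.98 CPM with isotype, Spred2, a brake on Ras signaling, 15.4 ± 3.13 CPM with DTA-1 and 24.3 ± 2.69 CPM with isotype, and the p38 and JNK phosphatase Dusp10 37.3 ± 20.4 CPM with DTA-1 and 20.3 ± 9.61 CPM with isotype. All 6 mRNA decay and corepressor partners had negative fold changes (median -0.39), among them the Zfp36 relative Zfp36l2 at 49.8 ± 9.87 CPM with DTA-1 and 74.3 ± 7.12 CPM with isotype and the deadenylase scaffold Cnot1 at 104 ± 21.7 CPM with DTA-1 and 108 ± 27.3 CPM with isotype.

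The lists linked to stress and handling differed in the balance of their fold changes, and no gene of them passed edgeR. Of 13 heat shock genes, which also respond to tissue dissociation, 8 had positive fold changes (median 0.04). Their summed level was 3759, 4077 and 3824 CPM in the DTA-1 libraries and 3678, 3007 and 3559 CPM in the isotype libraries. Most of this sum was 1 gene, the chaperone Hsp90ab1 (named after its values were seen), at 2568, 2864 and 2516 CPM in the DTA-1 libraries and 2333, 1883 and 2483 CPM in the isotype libraries. The co-chaperone Dnajb1 averaged 51.0 ± 20.3 CPM with DTA-1 and 92.3 ± 12.6 CPM with isotype, while Bag3 averaged 244 ± 29.8 CPM with DTA-1 and 201 ± 25.4 CPM with isotype. Of 8 targets of the integrated stress response 5 had negative fold changes (median -0.13), with Sesn2, a stress-induced brake on mTORC1, at 11.3 ± 3.28 CPM with DTA-1 and 21.1 ± 2.08 CPM with isotype and the glutathione-degrading enzyme Chac1 at 43.1 ± 19.5 CPM with DTA-1 and 27.4 ± 10.8 CPM with isotype. All 10 tested NF-kappaB targets and cytokines had negative fold changes (median -0.72), and 1 of them had an unadjusted p under 0.05 (10%, beside 12.7% of all genes). Neutrophil markers (6 of 6 negative, median -1.16) and the squamous markers (8 of 8 basal and 10 of 10 differentiated ones) had negative fold changes as well, and their part in this list was not tested. Nfkbia, the inhibitor that ends NF-kappaB signaling, averaged 93.1 ± 23.3 CPM with DTA-1 and 137 ± 10.9 CPM with isotype, the cytokine gene Tnf 1.03 ± 0.655 CPM with DTA-1 and 2.75 ± 2.36 CPM with isotype, and the apoptosis inhibitor Birc3 15.1 ± 0.567 CPM with DTA-1 and 16.5 ± 5.14 CPM with isotype. In the GITR and T cell activation list 9 of 11 tested genes had negative fold changes (median -0.21), with the costimulatory receptor Tnfrsf4 at 0.421 ± 0.247 CPM with DTA-1 and 1.35 ± 1.0 CPM with isotype and Nfatc1 at 48.7 ± 15.3 CPM with DTA-1 and 30.5 ± 4.22 CPM with isotype. For the genes of these lists given by averages (SD, n = 3 each), the adjusted p in edgeR lay between 0.39 and 0.826.

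**Figure D5:**
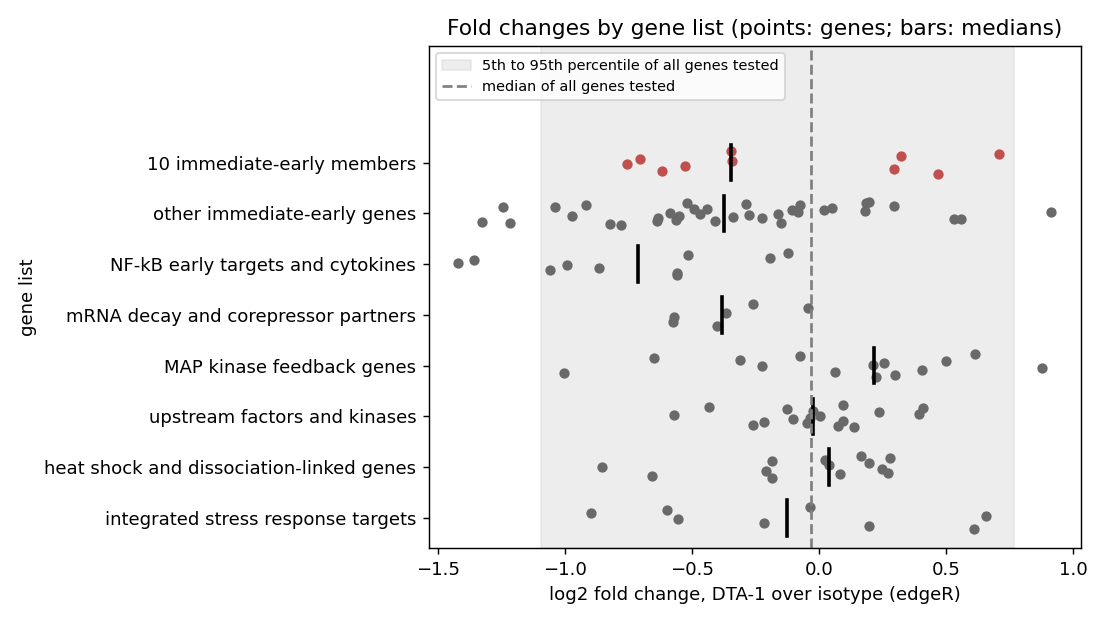
Log2 fold changes, DTA-1 over isotype, of the 10 members (top row) and of 7 related gene lists (other rows), with a bar at each median, the median of all 15763 genes as a dashed line and their 5th to 95th percentile (-1.10 to 0.77) shaded. The members lie within the shaded range on both sides of 0, and the medians run from -0.72 for NF-kappaB targets to 0.22 for MAP kinase feedback genes.

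The mean profile of the 10 members was shallow. It was 0.30, -0.31 and -0.24 log2 CPM in the DTA-1 libraries and 0.12, 0.16 and -0.03 in the isotype libraries. The 5 other genes nearest to it (mean log2 CPM at least 3) were Wdr73, Tubgcp4, Rnf219, Ssr1 and Bnip3l, with root mean square differences of 0.0279 to 0.0482 log2 units over the 6 libraries. Ssr1, a subunit of the translocon-associated complex, stood at 158, 112 and 109 CPM in the DTA-1 libraries and 147, 140 and 129 CPM in the isotype libraries. For single members, the nearest gene to Egr1 was Rnf149 (0.140) and the nearest to Junb was Cyb561 (0.122). The growth factor gene Hbegf was among the 3 genes nearest to Egr1 and Klf10 among the 3 nearest to Junb (0.149 and 0.150). Both are immediate-early genes of the longer list and were named for that reason. The 3 genes nearest to Ier2 were Erg28, Eif6 and S100a16 (0.0498 to 0.0578), which are not on that list.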

How the data were processed

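RNA-seq read counts per Ensembl gene, as whole numbers and not normalized, were deposited by the authors in a file for each of the 6 libraries. The submitters' processing notes name mouse build mm10 and the tools STAR, HTSeq 0.6.1p1, cutadapt 1.13 and DESeq2 1.14.1, with no settings. Strand handling is unknown here. Gene models were those of GENCODE M21 (GRCm38, also called mm10), and 153 IDs had no symbol.

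The members, lists and naming rule were chosen with earlier results of these data known. The rule took all 10 members, from each other list the tested genes with the highest and lowest fold change and the smallest p (4 smallest p among other immediate-early genes), and the 5 genes nearest to the members' mean profile. Genes passing filterByExpr (minimum count 10, minimum total 15; 15763 genes) were scaled by TMM and tested in edgeR 4.0.16 (R 4.3.3; robust quasi-likelihood, treatment as the only term, Benjamini-Hochberg adjustment over all genes), after a check on simulated data. CPM used TMM-scaled library sizes, log2 CPM a prior count of 2, and RPKM the union of exons. The alternatives were DESeq2 1.42.0, limma 3.58.1 (voom), other scalings and filters, marker scores as covariates, the replicate block and single libraries left out. Between any 2 libraries counts differed beyond sampling noise (smallest median chi-square per gene 4.00, DTA-1 replicate 1 with isotype replicate 3). Smooth muscle, fibroblast, endothelial, adipocyte, macrophage, neutrophil, B lineage and red cell marker lists had median log2 fold changes of 0.00, 0.14, 0.34, 1.04, -0.37, -1.16, 2.48 and 3.15, and none of their genes passed edgeR. The red cell value rests on DTA-1 replicate 2 (summed level 103, 2899 and 120 CPM in DTA-1 libraries; 98.2, 172 and 85.1 CPM in isotype libraries), and the adipocyte sum was high in DTA-1 replicate 3 (187, 169 and 974 CPM in DTA-1 libraries; 115, 391 and 153 CPM in isotype libraries).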

Additional observations from a re-analysis of the deposited data

How the results depend on the processing

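No member passed under any alternative except Ier2 without DTA-1 replicate 1. Calls over all genes were 0 in edgeR under every scaling, filter and covariate and under the replicate block, 180 in DESeq2 (43 higher, 137 lower, 0 members), 0 in limma-voom, and 0 to 601 without single libraries, 601 being without DTA-1 replicate 1. Members called without single libraries were 0 to 1. The fold change of Ier2 without single libraries lay between -1.18 and -0.51. The members' median was -0.45 to -0.18 without single libraries, 0.020 with the striated muscle score and 0.23 with the squamous score as covariate. The median of the other immediate-early genes was -0.73 to -0.24 without single libraries and 0.076 with the squamous score. With the squamous score the sign turned for Fosb (0.47), Junb (0.55), Egr1 (0.17), Ier2 (0.25) and Zfp36 (0.21), and with the muscle score for Fosb (0.13). The cause was not tested, and both scores ran with treatment. Scaling by library totals alone moved the median of all genes to -0.19 and that of the members to -0.49. For samples with the same replicate number the deviations had correlations of 0.02, -0.33 and -0.09. With 3 libraries a group, these values cannot tell whether such samples were paired, and the labels name no pairing. With the replicate block the members' median was -0.36 and edgeR called 0 genes. In that fit 3 of 10 members had an unadjusted p under 0.05, beside 1632 of 15763 genes. Depth weighs most on Fosb among the members. For Fosb too, the spread beyond counting error was wide (biological coefficient of variation 0.478). For all 10 members the spread between 3 libraries a group therefore sets most of the precision.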
